A study of Rattus norvegicus with 12 samples.

Results

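The gene table of this series places 21 assembled genes, out of 58341, at the position of Sgk1, the gene of serum- and glucocorticoid-regulated kinase 1. They were chosen by position alone: every entry whose locus runs from 24185451 to 24302581 on chromosome 1, as the table gives it, whatever its test status. These coordinates are read as rn6 because scaffold names in the table are those of rn6, although the submitters' processing notes name rn5, and no annotation of either build was used here. The most abundant of the 21, XLOC_000915, is called the main row here, and the other 20, which carry the same start and end but far lower values, are called the nested rows. The position was put forward with its values known, including the main row's rise and the nested rows' lack of one, so those values are given as a description. No other entry overlaps the span, by any base. The table has no gene symbols. The name Sgk1 therefore rests wholly on the position and on that reading of the build. The span of 117130 bp is close to the 117496 bp that RefSeq gives Sgk1 on chromosome 1 of GRCr8, another rat assembly.

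The RNA came from the hippocampus of 12 male Sprague-Dawley rats aged 8 weeks, all of them adrenalectomised, so that the controls too lacked their main source of corticosterone. One group of 6 received corticosterone at 300 µg/kg and the other group of 6 received vehicle, and both were killed 1 h later. One label field of the treated samples reads cortisone, but the titles and the protocol read corticosterone, which is used here. The labels list the animals as separate samples, but the deposited table sums up each group of 6 in 1 value per assembled gene, in FPKM (fragments scaled by transcript length and library depth), so the values of single animals, their spread and the read depth are not known here.

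Corticosterone acts through the glucocorticoid and mineralocorticoid receptors, both of which are abundant in the hippocampus and, once bound, act in the nucleus as transcription factors. Sgk1 is among the genes they are known to induce quickly. Its product is a serine/threonine kinase that is activated downstream of phosphoinositide 3-kinase, by mTOR complex 2 and PDK1. It is best known for phosphorylating the ubiquitin ligase Nedd4-2, which keeps sodium channels at the cell surface, and in the brain it has been studied in memory and in oligodendrocytes.

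RefSeq gives Sgk1 alternative first exons, and its promoter table (GRCr8) holds 3 starts on the minus strand of chromosome 1. The 250 bases before each are shown because the values do not tell from which start, listed there or not, the main row's RNA came. They are written 5′ to 3′, and capitals mark 2 kinds of match, each searched on both strands. The first is TATAAA, the core of a TATA box. The other is GGGCGG, the GC box that the factor Sp1 binds. Compared with the 117496 bp that RefSeq gives Sgk1, the 3 starts lie close together. Which of its 5 RefSeq transcripts begin at them was not examined here. The windows are chr1:24807232-24807481, chr1:24805571-24805820 and chr1:24804832-24805081, in the order of transcription.
start 1: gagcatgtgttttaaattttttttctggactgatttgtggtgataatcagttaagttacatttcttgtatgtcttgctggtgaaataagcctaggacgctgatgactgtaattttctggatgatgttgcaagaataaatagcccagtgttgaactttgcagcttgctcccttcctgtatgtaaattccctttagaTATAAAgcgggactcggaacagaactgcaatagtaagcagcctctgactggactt
start 2: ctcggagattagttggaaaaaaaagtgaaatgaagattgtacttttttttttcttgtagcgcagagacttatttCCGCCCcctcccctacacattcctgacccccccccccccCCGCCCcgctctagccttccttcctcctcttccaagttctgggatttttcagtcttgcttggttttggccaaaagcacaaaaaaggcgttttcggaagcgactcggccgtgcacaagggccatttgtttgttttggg
start 3: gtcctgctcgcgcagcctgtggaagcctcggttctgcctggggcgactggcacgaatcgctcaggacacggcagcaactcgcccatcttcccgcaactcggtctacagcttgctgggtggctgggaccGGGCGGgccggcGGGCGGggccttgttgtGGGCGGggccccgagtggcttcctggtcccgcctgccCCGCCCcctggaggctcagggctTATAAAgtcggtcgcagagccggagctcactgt

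The 3 windows differ in these letters. TATAAA begins 55 bases before start 1 and 33 bases before start 3 and is not in the window of start 2. GC boxes number 2 before start 2 and 4 before start 3, and none is found before start 1. Of 33469 rat promoter windows of the same length, 12.9% hold TATAAA and 30.5% hold GGGCGG, on either strand. The palindromic glucocorticoid response element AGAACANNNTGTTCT, the textbook site of the receptor, is in none of the 3 windows and in 0.0120% of all windows. The single AGAACA, 1 arm of that element, counted on both strands, is also in none of the 3 and in 17.5% of all. These are matches of letters in short windows, and nothing about receptor binding is drawn from them.

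The main row, XLOC_000915, was higher with corticosterone. Its group value was 15.8 FPKM with vehicle and 37.3 FPKM with corticosterone, a gain of 21.5 FPKM. In the authors' deposited table that is a rise of 2.36-fold, or 1.24 on the log2 scale, with p = 5e-05 and q = 0.0165, which are the smallest p and q any of its entries has and are shared by 130 entries. It was the only one of the 13 tested members called different at a q of 0.05 or less. Of all tested entries, 0.345% were called, 0.271% as higher and 0.0747% as lower. Since the table gives 1 value per group and none per animal, no error between animals can be put on the 2.36-fold, and in RNA of a whole tissue more cells of a type cannot be told apart from more RNA per cell.

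Few called increases were as abundant as this one. By the mean of both groups the main row ranked 4 among the 116 entries called higher. It was more abundant than 96.2% of the 42836 tested entries with both values above 0. By gain in FPKM it ranked 3 among the called increases, and by fold 33 among the 115 with both values above 0. The deposited test statistic, which Cuffdiff computes by setting the size of a difference against its estimated variability and which is negative for increases in this table, was -5.44 for the main row. Among tested entries with both values above 0, only 2 had a statistic further towards corticosterone.

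Most of the nested rows had slightly lower values with corticosterone, and none was called. In the authors' deposited table, 17 of the 20 had a lower value with corticosterone and 3 a higher one. None of the 12 that were tested was called, their smallest unadjusted p being 0.366 and every q 0.999. Among 6880 tested entries in the same range of abundance 0.392% were called, so nothing is read from 0 calls among 12. The median nested value was 0.824 FPKM with vehicle and 0.694 FPKM after corticosterone. On the log2 scale the median difference of the 12 tested nested rows was -0.29, that is 1.22-fold lower, and that of the 8 untested ones was -0.26. Their sum was 17.1 FPKM with vehicle and 14.0 FPKM with corticosterone.

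**Figure D1:**
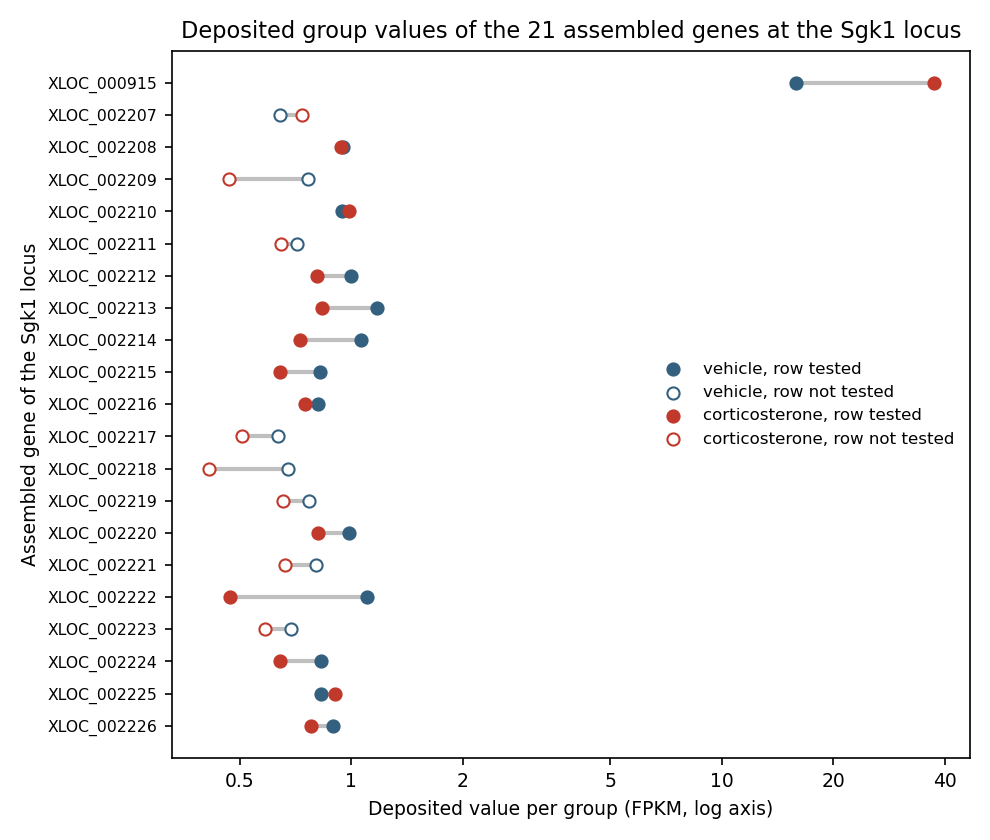
Deposited FPKM per group (log axis) of the 21 assembled genes at the Sgk1 locus, with vehicle in blue and corticosterone in red, filled where the authors tested the row and open where they did not. The main row at the top moves from 15.8 to 37.3 FPKM, while the 20 nested rows lie between 0.412 and 1.17 FPKM and 17 of them have the red point on the left.

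The nested rows were alike in level. With vehicle they ran from 0.632 to 1.17 FPKM, a range of 1.85 times from the lowest to the highest, and with corticosterone from 0.412 to 0.987 FPKM, a range of 2.40 times. No nested row came near the main row in either group. The main row was 13.5 times the highest nested row with vehicle and 37.7 times with corticosterone. Its share of the summed FPKM of the locus, which adds levels per length and is not a share of reads, was 48.1% with vehicle and 72.8% with corticosterone.

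A single nested row stood out by its fold. XLOC_002222 had 1.10 FPKM with vehicle and 0.469 FPKM with corticosterone, a log2 difference of -1.23 in the authors' deposited table. Its p of 0.423 in that table, unadjusted, is far from the threshold, although the fold is nearly the mirror image of the main row's. The test statistics of the 12 tested nested rows had sizes between 0.00777 and 0.440, against the main row's 5.44. The mean of both groups was 0.786 FPKM for XLOC_002222 and 26.5 FPKM for the main row.

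The next largest differences among the tested nested rows were also towards vehicle. XLOC_002213, the only nested row with a mean of at least 1 FPKM, had 1.17 FPKM with vehicle and 0.833 FPKM with corticosterone. XLOC_002214 had 1.06 and 0.725 FPKM in the same order. They were 1.41 and 1.46 times lower with corticosterone, and neither was called. XLOC_002224 had 0.826 FPKM with vehicle and 0.641 FPKM with corticosterone, and XLOC_002215 had 0.822 and 0.642 FPKM. For XLOC_002212 the values were 0.996 and 0.808 FPKM, and for XLOC_002220 they were 0.985 and 0.815 FPKM. These 4 rows were each lower by less than 0.2 FPKM.

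The remaining tested nested rows had closer values in both groups. XLOC_002226 had 0.890 FPKM with vehicle and 0.777 FPKM with corticosterone. XLOC_002216 had 0.815 and 0.748 FPKM, and XLOC_002208 had 0.947 and 0.936 FPKM. The 2 tested nested rows that were higher with corticosterone differed as little. XLOC_002225 had 0.828 FPKM with vehicle and 0.906 FPKM with corticosterone, the highest log2 difference among the tested nested rows at 0.13 in the authors' deposited table. XLOC_002210, the most abundant nested row with corticosterone, had 0.941 and 0.987 FPKM.

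The 8 nested rows that Cuffdiff left untested were sparser and leaned the same way. Of these, 7 had a lower value with corticosterone. XLOC_002218 had 0.673 FPKM with vehicle and 0.412 FPKM with corticosterone, and XLOC_002209 had 0.765 and 0.468 FPKM, both 1.63-fold lower in the authors' deposited table. The other five lower ones had smaller differences. XLOC_002217 had 0.632 and 0.507 FPKM, XLOC_002221 had 0.801 and 0.662 FPKM, and XLOC_002223 had 0.689 and 0.584 FPKM, vehicle first. XLOC_002219 had 0.770 and 0.654 FPKM, and XLOC_002211 had 0.713 and 0.646 FPKM. The exception was XLOC_002207, with 0.643 FPKM with vehicle and 0.734 FPKM with corticosterone. Over all 20 nested rows, 6 had values within 0.1 FPKM of each other in the 2 groups.

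Set beside entries of the same abundance, most nested rows were within the common range of differences. Of 14434 entries with a mean between 0.542 and 1.00 FPKM, the range of the nested rows, 53.1% had a lower value with corticosterone, and their median log2 difference was -0.02. From the 5th to the 95th percentile their log2 differences ran from -0.59 to 0.58, and 17 of the 20 nested rows fell inside that interval. The 3 outside it were the sparse XLOC_002209 and XLOC_002218 and the tested XLOC_002222, all on the lower side. Below the 25th percentile of these entries, at -0.22, lay 13 of the 20. The nested rows share a locus, so these counts are not 20 separate measurements.

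**Figure D2:**
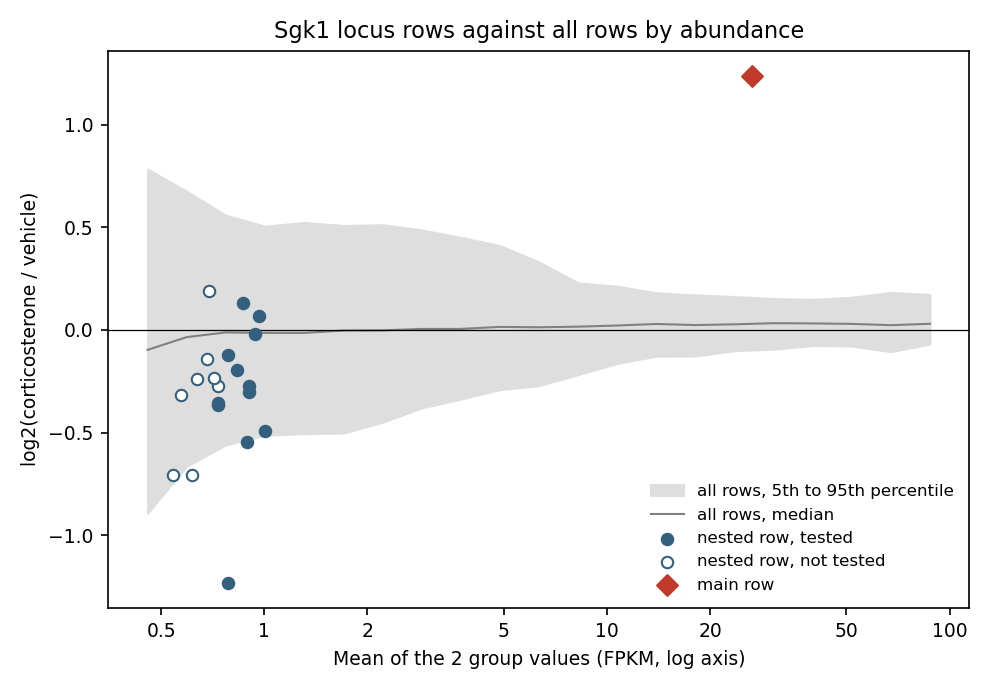
The log2 ratio of corticosterone to vehicle against the mean of both group values (FPKM, log axis) for the main row (diamond) and the nested rows (circles, open where not tested). The grey band spans the 5th to the 95th percentile of all entries in bins of like abundance and the grey line is their median. The main row at 1.24 lies above the band, and most nested rows lie inside it, below 0.

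A lean of the nested rows towards vehicle was found at other loci too. Among 889 loci with at least 10 entries besides the most abundant one and with both values above 0, a median of 53.3% of those entries were lower with corticosterone. At the Sgk1 locus 85.0% were, and 71 of the 889 loci, or 7.99%, had a share at least as high, the Sgk1 locus itself included. The share of lower nested rows at this locus was therefore towards one end of the range but not alone there.

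The gap between the main row and the nested rows was wide. The log2 difference of the main row exceeded the median of the 12 tested nested rows by 1.52. Over all 2980 loci that have at least 2 tested entries besides their most abundant one, the nested median minus the main row had a median of -0.02 and a 5th to 95th percentile range of -0.38 to 0.37. The Sgk1 locus, at -1.52, was the lowest of the 2980. This rank is a description of group values, chosen with the pattern known, and carries no test.

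Among loci with a called increase, the Sgk1 locus differed in the values of its less abundant entries. The most abundant entry was called higher at 15 of the 2980 loci. At the other 14 the median of the less abundant tested entries was higher with corticosterone too, from 0.36 to 2.51 on the log2 scale, and it exceeded the change of the most abundant entry by 0.03 to 1.40. Of the 106 less abundant tested entries at those 14 loci, 104 had a higher value with corticosterone. At the Sgk1 locus 2 of 12 did. Most of the 106 were not called, but the share called was above the 0.345% called among all tested entries. These loci were picked by the call of their most abundant entry, so that share is a description. Those called were 9 of 41 on chromosome 8, 2 of 10 on chromosome 7, 2 of 7 on chromosome 20 and 2 of 5 on chromosome 2. The 41 share 1 locus, so the 106 are not separate measurements.

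**Figure D3:**
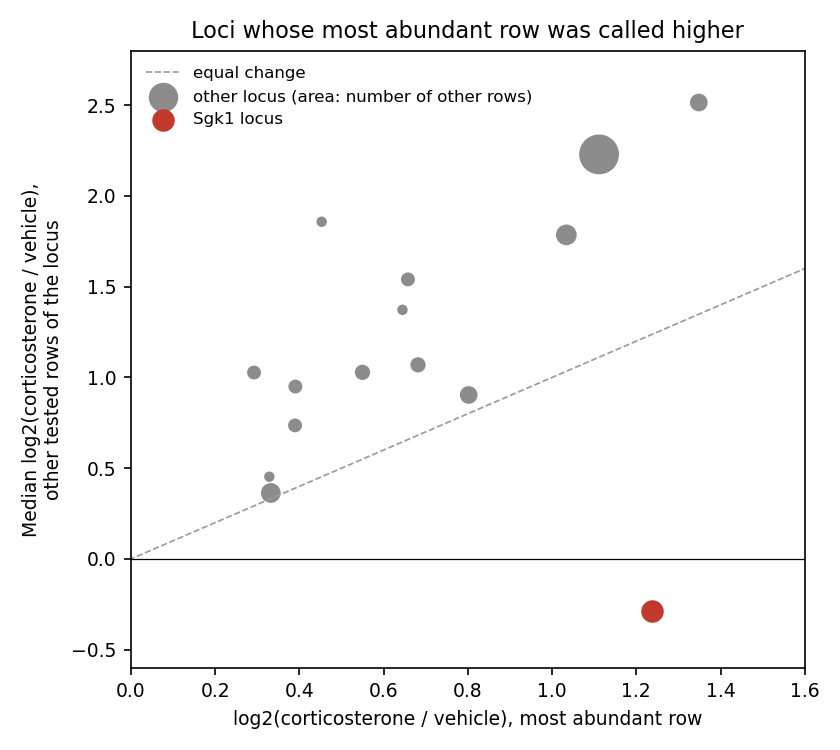
The 15 loci whose most abundant assembled gene was called higher: its log2 ratio of corticosterone to vehicle on the x axis, the median log2 ratio of the other tested assembled genes of the locus on the y axis, point area proportional to their number. The Sgk1 locus (red) is at 1.24 and -0.29, and the other 14 loci (grey) lie above the dashed line of equal change.

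The 3 loci most like it in the rise of their main row, among those with at least 5 other tested entries, show the contrast in levels. On chromosome 20 at 7974577 to 8087005, the most abundant entry, XLOC_031691, had 3.56 FPKM in the vehicle group and 9.06 FPKM in the corticosterone group, which the authors' deposited table gives as 2.55-fold. All 10 of its other entries were higher with corticosterone, and their median went from 0.217 FPKM in the vehicle group to 1.47 FPKM in the corticosterone group. On chromosome 8 at 52980103 to 53147051, XLOC_052018 rose from 12.5 to 26.9 FPKM, and all 41 other entries were higher, with medians of 1.42 FPKM for vehicle and 5.61 FPKM for corticosterone. On chromosome 7 at 125569769 to 125612977, XLOC_048262 rose from 1.57 to 3.21 FPKM, and all 10 others were higher, with medians of 0.352 FPKM for vehicle and 1.21 FPKM for corticosterone.

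The nested rows of the Sgk1 locus thus started from a middling level among these loci. Their vehicle median of 0.824 FPKM lay above those of the chromosome 20 and chromosome 7 loci and below that of chromosome 8. With corticosterone their median of 0.694 FPKM was the lowest of the 4 loci. These medians in FPKM cover tested and untested entries, while the log2 differences that follow use tested entries only, 7 of the 10 on chromosome 20. The nested median minus the main row was 1.17 on the log2 scale for chromosome 20, 1.12 for chromosome 8 and 0.75 for chromosome 7, against -1.52 for Sgk1. Whether these loci differ beyond the spread between animals could not be tested, because no value per animal is given.

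The identifiers of the nested rows also set them apart from the main row. On chromosome 1 the numbering of the assembled genes runs along the chromosome 3 times, over 871, 948 and 4473 entries. The main row belongs to the second run, where the median entry had 4.62 FPKM, and all 20 nested rows stand one after another in the third run, from XLOC_002207 to XLOC_002226, where the median entry had 1.10 FPKM. In the third run 53.4% of entries with both values above 0 were lower with corticosterone, against 38.4% in the second. The same arrangement, with the most abundant entry in an earlier run and all others in the third run, held at 14 of the 15 loci with a called increase, so it does not separate the Sgk1 locus from them. What distinguishes the runs, and where the nested rows lie inside the locus or how long they are, was not analysed here.

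Few entries near the locus allow a comparison. Within 500 kb the table has 6 entries at 3 other loci, of which 4 were tested. None of the 4 was called, and 0 had an unadjusted p of 0.05 or less (smallest p 0.223 in the authors' deposited table). Of all tested entries 0.345% were called and 2.92% had such a p, so nothing is read from a count of 0 among 4. The nearest on the higher side, XLOC_002227 at 24348330 to 24349412, lies 45.7 kb away and had 0.197 FPKM with vehicle and 0.207 FPKM with corticosterone. The nearest on the lower side, XLOC_002206 at 24109899 to 24111844, lies 73.6 kb away and had 0.434 and 0.465 FPKM. Neither was tested, and both were nearly equal in the 2 groups.

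The one well expressed neighbour was the locus at 23976918 to 24056589, 128.9 kb away. Its most abundant entry, XLOC_000045, had 9.37 FPKM with vehicle and 10.1 FPKM with corticosterone (p = 0.631 in the authors' deposited table). Its XLOC_000914 had 1.92 and 2.02 FPKM. The other two entries there were lower with corticosterone, XLOC_002204 with 4.03 and 3.17 FPKM and XLOC_002205 with 1.93 and 1.59 FPKM, and neither was called. In GRCr8 the protein-coding genes next to Sgk1 are Slc2a12, a glucose transporter, and 1700020N01Rikl. The entries of the table were not matched to them, since the assemblies differ.

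The authors' list of different transcripts includes the locus as well. Of its 122 transcripts at 95 loci, 2 lie here, and 13 of the 95 loci hold at least 2 listed transcripts. The list gives the 2 here, TCONS_00003614 and TCONS_00003615, exactly the start and end of the locus. Whether those are the own ends of these transcripts is not known here. Both carry the code 999, the higher of the 2 codes in that list and the one given to 101 of its transcripts. The list comes from the same animals and the same assembly as the gene table and is no independent evidence. It does not say to which of the 21 assembled genes the transcripts belong.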

How the data were processed

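Hippocampal RNA-seq of 12 rats, 6 per group, was deposited as 1 gene table and 1 transcript list. The submitters' processing notes name Cuffdiff 2.2.1.3, Cufflinks 2.2.1.0, TopHat 0.9 and Bowtie2 0.6, with build rn5; for scaling, strand setting and dispersion model no details are given in the sources used here, and scaffold names in the table are those of rn6. Per the file headers, the authors deposited FPKM values, 1 per group and assembled gene. The log2 fold change, as deposited, puts Control over Cort: 58263 of 58271 entries with both values above 0 matched within 0.001, and the other 8 are marked as failed. Its sign was turned. The p-values and q-values are the authors' own, unaltered, and the deposited test statistic, a score, was only described; the score code of the transcript list is the authors' too. Transcript lengths and depth are not known, so no reads were recovered and no interval is given.

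Rows were selected and compared with Python 3.11.15, pandas 2.3.3 and NumPy 2.4.6; the within-locus calculation was tested on simulated data. No test of differences was added, as each group is 1 value. Entries with both values above 0 entered ratios. Named were the main row, nested rows of at least 1 FPKM or with the highest or lowest tested ratio, neighbours within 500 kb, and the 3 loci nearest in fold; the other nested rows were named after their values were seen. The members and lists were chosen with earlier results of these data known. Lists of Sgk1 pathway genes, glucocorticoid targets and hippocampal cell types matched 0 entries, since none carries a symbol, and were not analysed here, so the tissue could not be checked by markers. Alternatives were other pseudocounts, filters and thresholds.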

Additional observations from a re-analysis of the deposited data

How the results depend on the processing

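The main row stayed at 1.19 to 1.24 on the log2 scale under pseudocounts of 0.1 and 1 FPKM and recentring. It remained called with adjustment over entries of at least 1 FPKM and at a q of 0.10 or less, but not at a q of 0.01 or less (log2 1.24, q = 0.0165), where 0 of all entries are called because 0.0165 is the smallest q; at an unadjusted p of 0.05 or less there are 1253. The median of the nested rows, -0.29, was -0.26 and -0.14 with pseudocounts of 0.1 and 1 FPKM and -0.27 over all 20 rows. It was -0.49 for the 1 row with a mean of at least 1 FPKM, -0.29 from sums and -0.29 recentred. Without XLOC_002222 it was -0.27, a setting chosen after seeing the data. A pseudocount turns the sign of no ratio, and recentring shifted values by only 0.00702. With 10 of 12 tested rows lower, leaving out 1 row could not turn the median either. These settings therefore show how its size moved and do not test its direction. The main row minus this median was 1.49 and 1.32 with those pseudocounts, 1.51 over all rows, 1.73 with the filter, 1.53 from sums and 1.51 without XLOC_002222. Over tested rows only, the locus summed to 46.6 FPKM with corticosterone and 27.2 FPKM with vehicle, against 51.2 and 32.9 FPKM over all rows. The Sgk1 locus was the 1 locus with a nested median below 0 among the 8 with at least 5 other tested entries, and 1 of 15 had such a median with a pseudocount of 1 FPKM. Neither count tests stability, since the 8 are among the 15 and a pseudocount turns the sign of no ratio. Within 100 kb of the locus neither of the 2 entries was tested, so 0 calls there say nothing about stability. No paired analysis was possible because the table holds no value per animal, and leaving out animals was not run for the same reason. Depth is unknown, so what rows under 1 FPKM could show is not bounded here.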
